A study of Mus musculus with 18 samples.

Results

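The genes described here encode subunits of meiotic cohesin and building blocks of the synaptonemal complex. The members were named beforehand: the cohesin subunits *Smc1b*, *Stag3* and *Rec8*, the axis proteins *Hormad1* and *Sycp3*, the transverse filament protein *Sycp1* and the central element proteins *Syce1* and *Syce2*. All 8 had a probe set, 8 of the 19938 genes that a probe set with a single symbol names on the array, and *Hormad1* had a further one, so that 9 of 35512 probe sets are described. No measured value was used as a filter, but earlier results of these arrays were known when the choice was made, so it is not independent of them.

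Cohesin is a ring of SMC proteins closed by a kleisin and bound by a STAG subunit, which holds sister chromatids together. Germ cells that enter meiosis exchange several of its subunits for meiotic versions, and the cohesin-bound chromatid loops are organized along a protein axis on which homologous chromosomes are then zipped together by the synaptonemal complex. In somatic cells these genes are largely kept silent, and promoter DNA methylation and a Polycomb complex that contains E2f6 and Mga are known to contribute to this.

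The study followed mouse J1 ESCs (strain 129Sv/Jae) with intact or reduced DNA methylation through undirected differentiation as embryoid bodies (EBs) made in hanging drops. Compared were wild type (wt) cells, *Dnmt1-/-* cells, which lack the methyltransferase that maintains methylation at replication, and TKO cells, which lack Dnmt1 and the *de novo* enzymes Dnmt3a and Dnmt3b. RNA of each line was hybridized from undifferentiated ESCs (day 0) and from EBs of days 4 and 16, to Affymetrix Mouse Gene 1.0 ST arrays, with 2 arrays in each of the 9 groups, described as biological replicates. Each genotype is represented by a single ESC line, so genotype and line cannot be told apart, and EBs are mixtures of cell types, in which a signal from fewer expressing cells and one from less RNA per cell cannot be told apart.

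Signals are on the log2 scale, as summarized by the authors with RMA. Over the 18 arrays they ran from 1.21 to 14.01 with array medians of 5.77 to 5.90, and replicate arrays had Pearson r of 0.981 to 0.991, a value taken over probe sets, which are no replicates. No detection calls were used here, so it is not known whether signals near 3, as for *Sycp1* and *Sycp3* in wt EBs, are above background. Levels are compared between groups for a gene, never between genes. Each mean is over n = 2 arrays, and every SE and adjusted p comes from a single limma fit to all 18 arrays and is adjusted over all probe sets. A gene passed the test with a fold of at least 2 (1 on the log2 scale) and a false discovery rate under 0.05. In ESCs *Dnmt1* was 1.02 lower on the log2 scale in *Dnmt1-/-* cells, with signals of 9.60 to 9.77 in wt and 8.53 to 8.81 in the mutant. TKO ESCs gave 8.41 to 8.42 for *Dnmt1*, 7.42 to 7.65 for *Dnmt3a* against 8.87 to 9.45 in wt, and 7.33 to 7.45 for *Dnmt3b* against a mean of 9.90 in wt. Over all 3 days *Dnmt1* in both mutants (8.40 to 8.86) and *Dnmt3a* in TKO cells (6.45 to 7.65) stayed below every wt array (9.16 to 9.77 and 7.96 to 9.45). *Dnmt3b* was lower in TKO cells with a call at day 0 only: in day 4 EBs it read 8.58 to 8.88 against 9.04 to 9.70 in wt, and in day 16 EBs 7.52 to 7.71 against 7.16 to 7.41. Whether the probes of the *Dnmt* genes lie in the deleted parts was not tested.

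The promoters of the genes were inspected first, because the members were studied in cells that differ in DNA methylation. All 8 members were found in a RefSeq promoter table (GRCm38.p6), which gives 250 bases before and 50 after each annotated start, and *Hormad1* and *Syce2* had an additional start. Searched on both strands were the E2F core TCCCGC, or GCGGGA on the opposite strand, and the palindromic E-box CACGTG, which is bound by Mga with Max among other factors. Each of these words contains a CG. The E2F core was present in at least one promoter of 7 members and the E-box in at least one promoter of 5, and the same 5 members, *Stag3*, *Hormad1*, *Sycp3*, *Sycp1* and *Syce2*, held both. Of all 32851 promoters in the table, 20.0% contained the E2F core, 7.2% the E-box and 2.0% both. These shares are per promoter, whereas a member was counted if any of its promoters matched. The E-box of *Syce2* lies at its second start only. No background of like CG content was counted, so the shares do not show that the words are particular to the members. *Syce1* contained neither word. CG dinucleotides numbered 14 in *Syce1*, the lowest of the members, and 33 in the second *Syce2* promoter, the highest, compared with a median of 7 and an upper quartile of 20 over all promoters. A match is a description of the sequence, and neither binding nor methylation was measured on these arrays.

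The 180 bases before the start are given below for the members on which the results turn, 4 with matches and *Syce1* without, so that the arrangement of the words can be compared. Each is written 5′ to 3′ on the strand of the gene, with the E2F core and E-box matches in capitals. They lie at chr15:85131958-85132137 on the minus strand (*Smc1b*), chr5:138280329-138280512 on the plus strand (*Stag3*, extended by 4 bases beyond the start to complete the E2F core), chr3:95559497-95559676 on the plus strand (*Hormad1*), chr10:88459407-88459586 on the plus strand (*Sycp3*) and chr7:140787855-140788034 on the minus strand (*Syce1*).
Smc1b: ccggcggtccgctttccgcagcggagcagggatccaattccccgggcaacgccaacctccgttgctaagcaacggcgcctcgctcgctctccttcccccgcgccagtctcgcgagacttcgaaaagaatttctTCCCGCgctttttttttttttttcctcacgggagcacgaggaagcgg
Stag3: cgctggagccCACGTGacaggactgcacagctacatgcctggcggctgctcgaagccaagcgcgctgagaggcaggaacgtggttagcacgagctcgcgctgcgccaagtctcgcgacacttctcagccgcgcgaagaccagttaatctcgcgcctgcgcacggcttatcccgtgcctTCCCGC
Hormad1: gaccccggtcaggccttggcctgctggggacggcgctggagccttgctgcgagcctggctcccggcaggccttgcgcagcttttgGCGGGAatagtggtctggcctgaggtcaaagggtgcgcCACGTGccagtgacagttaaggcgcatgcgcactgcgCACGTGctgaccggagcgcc
Sycp3: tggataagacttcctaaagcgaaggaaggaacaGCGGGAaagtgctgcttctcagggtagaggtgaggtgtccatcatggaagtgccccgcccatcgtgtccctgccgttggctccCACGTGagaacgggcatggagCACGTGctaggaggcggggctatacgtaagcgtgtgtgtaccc
Syce1: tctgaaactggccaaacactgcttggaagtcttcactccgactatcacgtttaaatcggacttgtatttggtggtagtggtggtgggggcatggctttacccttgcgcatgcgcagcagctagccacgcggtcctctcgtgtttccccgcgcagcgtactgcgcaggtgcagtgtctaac

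In *Smc1b* the E2F core began 47 bases before the start and in *Rec8* 38 bases before it, each without an E-box in the window. In *Stag3* it lay across the start, with an E-box 170 bases upstream. *Hormad1* and *Sycp3* shared an arrangement of 1 E2F core followed downstream by 2 E-boxes, all within 147 bases of the start. In *Sycp1* the E-box lay 94 bases before the start and the E2F core began at base 3 after it.

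**Figure D1:**
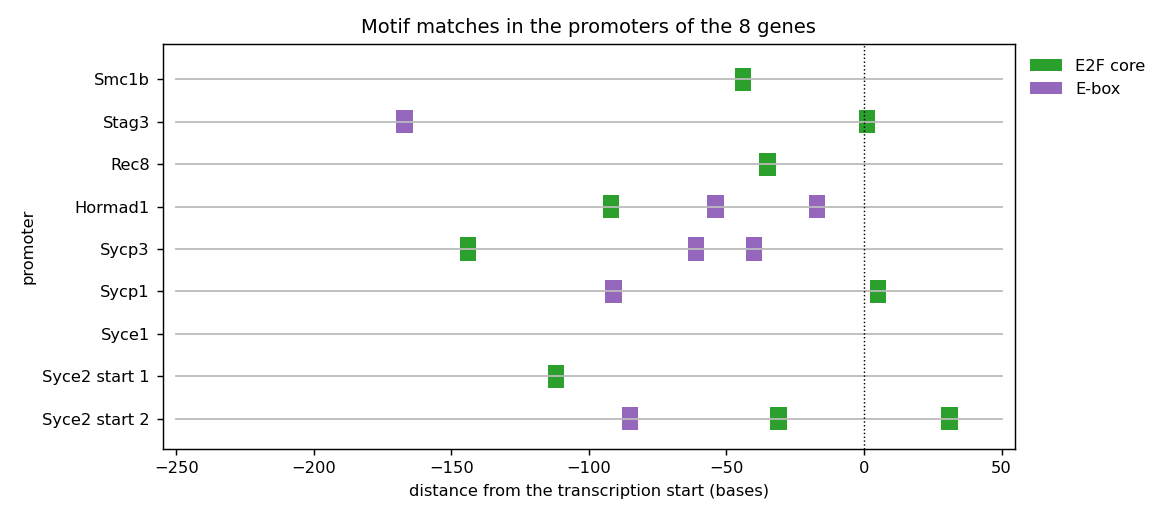
Positions of the E2F core (green) and the E-box (purple) in the promoters of the 8 genes, as distance in bases from the transcription start (dotted line); each grey line spans the searched 300 bases, and the second start of *Hormad1*, 2 bases from the first, is not drawn. Of the 8 genes, 7 have an E2F core, 5 have an E-box and *Syce1* has neither.

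Among the cohesin subunits, *Smc1b*, the meiotic partner of Smc3 in place of Smc1a, showed the clearest dependence on genotype. In wt its signals were 4.79 and 4.82 in ESCs, 3.88 and 4.16 in day 4 EBs and 4.28 and 4.68 in day 16 EBs. In *Dnmt1-/-* cells they were 7.35 and 6.79 in ESCs, 5.13 and 4.24 at day 4 and 6.81 and 6.71 at day 16. In TKO cells they were 7.28 and 7.27, 5.08 and 5.18, and 7.84 and 7.72 at the same days. Thus all mutant arrays of day 0 and day 16 lay above every wt array, whereas at day 4 both mutants were close to the level of wt ESCs. Compared with wt, *Smc1b* was 4.81-fold higher in *Dnmt1-/-* ESCs (log2 fold change 2.27, SE 0.26, adjusted p = 0.0022) and 5.54-fold higher in TKO ESCs (2.47, SE 0.26, adjusted p = 0.00078). At day 4 the TKO difference was 1.11 (SE 0.26, adjusted p = 0.025) and lost the call without any one of the 4 arrays compared (0.97 to 1.25, adjusted p = 0.057 to 0.19), and the *Dnmt1-/-* difference was 0.67 (adjusted p = 0.67). At day 16 *Smc1b* was 4.85-fold higher in *Dnmt1-/-* EBs (2.28, SE 0.26, adjusted p = 0.00018) and 9.85-fold higher in TKO EBs (3.30, SE 0.26, adjusted p = 3.6e-06). In the order of the 9 group means TKO day 16 (7.78) stood apart from the next group, TKO ESCs, *Dnmt1-/-* ESCs and *Dnmt1-/-* day 16 EBs overlapped their neighbours, and wt day 4 (4.02) was lowest.

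*Smc1b* also moved sharply with time, and in the mutants alone it passed the test in doing so. From day 0 to day 4 it fell in *Dnmt1-/-* cells (-2.39, SE 0.26, adjusted p = 0.00016) and in TKO cells (-2.15, adjusted p = 0.00053), against -0.79 in wt (adjusted p = 0.08). From day 4 to day 16 it rose again, 4.20-fold in *Dnmt1-/-* EBs (2.07, adjusted p = 0.00044, and 0.07 in a fit of the compared arrays alone) and 6.28-fold in TKO EBs (2.65, adjusted p = 0.00044), against 0.46 in wt (adjusted p = 0.32). The difference of this second change from that of wt was 2.19 in TKO EBs (SE 0.36, adjusted p = 0.0054) and kept its call without each of the 8 arrays in turn (1.99 to 2.39). In *Dnmt1-/-* EBs it was 1.61 (SE 0.36, adjusted p = 0.072, and 2.06 with adjusted p = 0.012 without day 4 replicate 1 of this line), and the differences of the first change, -1.60 in *Dnmt1-/-* and -1.36 in TKO cells, did not pass either (adjusted p = 0.24 and 0.10).

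**Figure D2:**
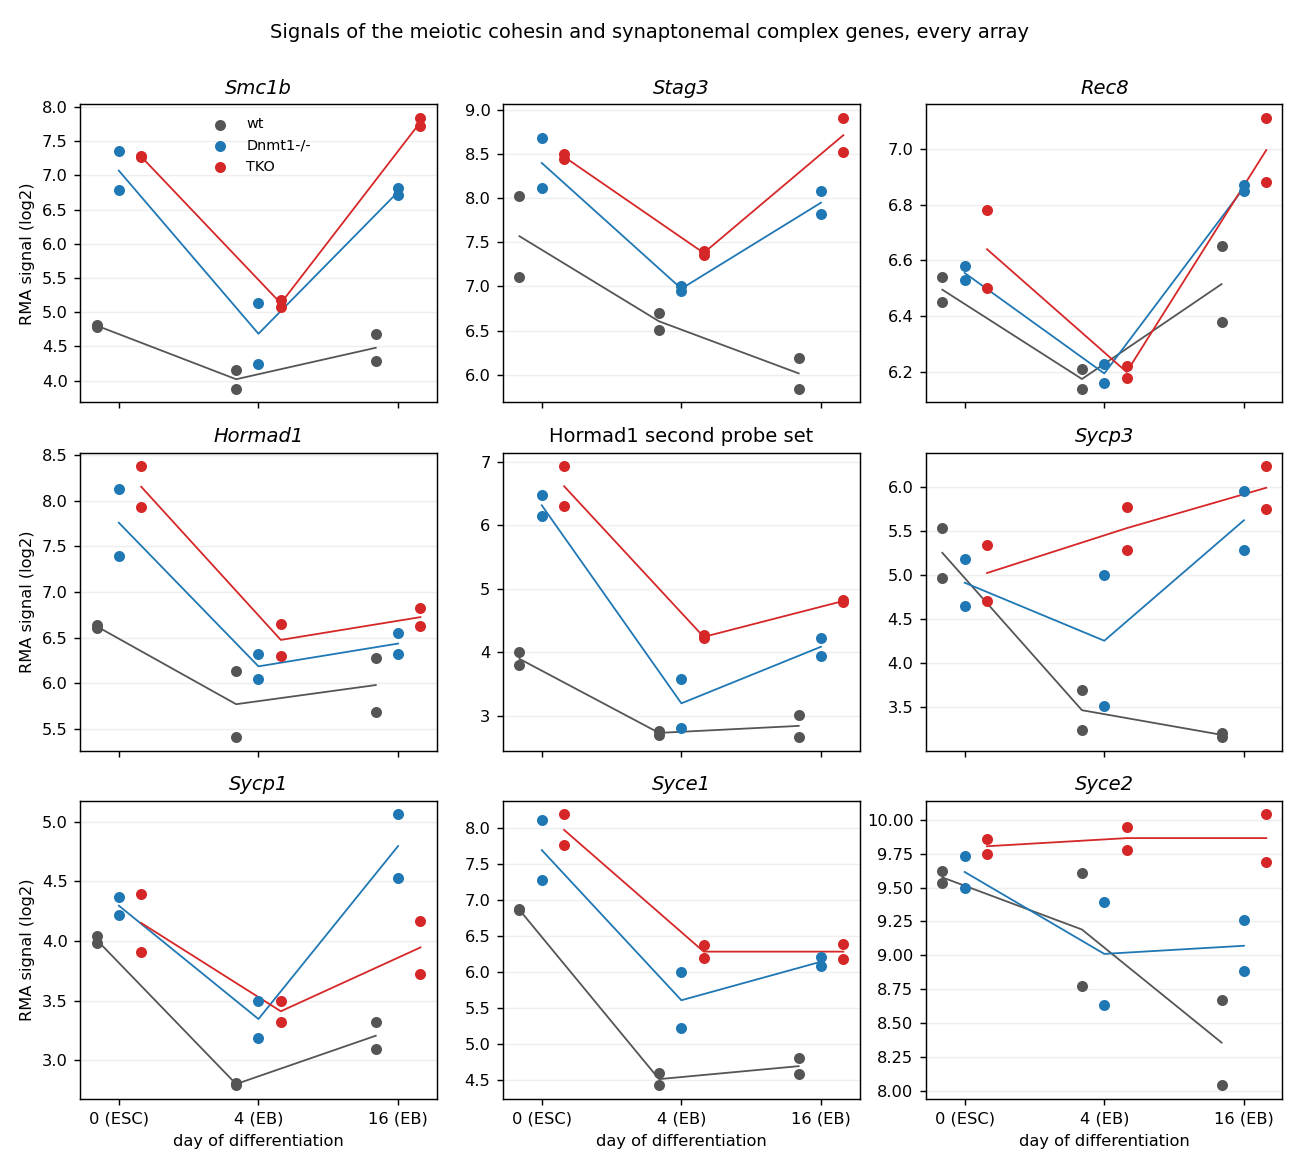
Log2 RMA signal of each gene on every array (points; vertical axis, with its own range in each panel) by day of differentiation (horizontal axis) for wt (grey), *Dnmt1-/-* (blue) and TKO (red); lines join the means of the 2 arrays of a group. *Smc1b* and *Stag3* are lower at day 4 than at days 0 and 16 in both mutants, *Hormad1* and *Syce1* stay low after day 4, and *Sycp3* falls to 3.18 at day 16 in wt but is 5.99 in TKO EBs.

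*Stag3*, the meiotic STAG subunit of the ring, had the same shape in the mutants, on a higher wt signal in ESCs. Signals were 7.11 and 8.03 in wt ESCs, 6.70 and 6.51 in wt day 4 EBs and 5.84 and 6.19 in wt day 16 EBs. *Dnmt1-/-* cells gave 8.12 and 8.68, 7.0 and 6.95, and 7.82 and 8.08, and TKO cells gave 8.44 and 8.50, 7.36 and 7.40, and 8.52 and 8.91, at days 0, 4 and 16. Both mutants lay above wt at every day with no overlap, but the wt ESC arrays had an SD of 0.65.

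The day 0 differences of *Stag3*, 0.84 and 0.90 in *Dnmt1-/-* and TKO ESCs, did not pass (adjusted p = 0.48 and 0.23). At day 16 *Stag3* was 3.81-fold higher in *Dnmt1-/-* EBs (1.93, SE 0.27, adjusted p = 0.00087) and 6.48-fold higher in TKO EBs (2.70, SE 0.27, adjusted p = 2.8e-05), and both held without each array in turn. In wt it fell over the whole course from day 0 to day 16 (-1.55, SE 0.27, adjusted p = 0.001), whereas the corresponding values were -0.46 in *Dnmt1-/-* and 0.24 in TKO cells. The difference of this change between TKO and wt passed the test (1.79, SE 0.38, adjusted p = 0.017), as did that of the change from day 4 to day 16 (1.92, SE 0.38, adjusted p = 0.015). The first lost its call without wt day 0 replicate 2, wt day 16 replicate 1, either TKO day 0 array or TKO day 16 replicate 2 (1.33 to 1.82, adjusted p of up to 0.072). The second lost it without replicate 1 of wt day 4 or wt day 16, either TKO day 4 array or TKO day 16 replicate 2 (1.73 to 1.94, adjusted p of up to 0.07). Within TKO cells the fall of *Stag3* to day 4 (-1.09, adjusted p = 0.031) lost its call without any one array (adjusted p = 0.13 to 0.17) and the rise from day 4 to day 16 (1.33, adjusted p = 0.023) without either day 4 array or day 16 replicate 2 (adjusted p of up to 0.19). In *Dnmt1-/-* cells *Stag3* fell to day 4 (-1.43, adjusted p = 0.0048, and 0.059 without day 0 replicate 2), and in wt the value was -0.96 (adjusted p = 0.042, below the 2-fold line, and -1.42 without day 0 replicate 1, which passed).

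*Rec8*, the meiotic kleisin that closes the ring, passed the test in no comparison. Its signals were 6.45 and 6.54, 6.21 and 6.14, and 6.38 and 6.65 in wt, 6.53 and 6.58, 6.16 and 6.23, and 6.85 and 6.87 in *Dnmt1-/-* cells, and 6.50 and 6.78, 6.18 and 6.22, and 6.88 and 7.11 in TKO cells, at days 0, 4 and 16. The 9 group means spanned 0.82, the narrowest range among the members. All 3 lines overlapped at day 4, and at day 16 both mutants lay above wt, by 0.35 in *Dnmt1-/-* (SE 0.14, adjusted p = 0.21) and 0.48 in TKO EBs (SE 0.14, adjusted p = 0.036, below the 2-fold line). *Rec8* also stayed below the fold line from day 4 to day 16, with 0.67 in *Dnmt1-/-* (adjusted p = 0.014) and 0.79 in TKO EBs (adjusted p = 0.011).

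Of the axis genes, *Hormad1* encodes a HORMA domain protein of unsynapsed axes that supports break formation and synapsis surveillance. Its probe set with the higher signal gave 6.61 and 6.64 in wt ESCs, 5.41 and 6.13 in wt day 4 EBs and 5.68 and 6.28 in wt day 16 EBs. *Dnmt1-/-* cells gave 8.13 and 7.39, 6.32 and 6.05, and 6.32 and 6.55. TKO cells gave 8.38 and 7.93, 6.65 and 6.30, and 6.82 and 6.63. The mutants were above wt without overlap at day 0 and, more narrowly, at day 16, while at day 4 *Dnmt1-/-* overlapped wt. In ESCs *Hormad1* was 2.88-fold higher in TKO (1.53, SE 0.30, adjusted p = 0.053) and 2.19-fold higher in *Dnmt1-/-* (1.13, SE 0.30, adjusted p = 0.25), neither of which passed the test. The TKO difference passed under some of the other settings (after a further quantile normalization, adjusted p = 0.025). It did not pass with each array's median subtracted or in a fit of the compared arrays alone. Without each array in turn it was 1.3 to 1.75. *Hormad1* fell to day 4 in *Dnmt1-/-* (-1.57, SE 0.30, adjusted p = 0.0047) and TKO cells (-1.68, SE 0.30, adjusted p = 0.005), against -0.85 in wt (adjusted p = 0.099), and was 0.25 higher at day 16 than at day 4 in both mutants (adjusted p = 0.78 each). The fall in *Dnmt1-/-* cells lost its call without day 0 replicate 1 or day 4 replicate 2 (adjusted p = 0.054 each), and that in TKO cells without the arrays of the same day and number (adjusted p = 0.059 and 0.051).

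The second *Hormad1* probe set, which is listed under the same symbol and transcripts, had a wider range. It read 3.80 and 4.00, 2.70 and 2.77, and 2.67 and 3.02 in wt, 6.48 and 6.15, 3.59 and 2.81, and 4.23 and 3.95 in *Dnmt1-/-* cells, and 6.93 and 6.30, 4.22 and 4.27, and 4.83 and 4.79 in TKO cells. Here the mutants were above wt without overlap on all 3 days. This set was higher in *Dnmt1-/-* ESCs (2.42, SE 0.26, adjusted p = 0.0011) and TKO ESCs (2.71, SE 0.26, adjusted p = 0.00032). At day 4 the TKO difference was 1.51 (adjusted p = 0.0037), and at day 16 the differences were 1.24 in *Dnmt1-/-* (adjusted p = 0.012, and 0.081 or 0.11 without replicate 1 of wt or of *Dnmt1-/-* and 0.078 in a fit of the compared arrays alone) and 1.97 in TKO EBs (adjusted p = 0.00023). Both sets had the same course over the 18 arrays (Pearson r of 0.95, as a description), but they disagreed on which differences passed, and a count of members below uses the set with the higher signal. Which loci the probes of each set detect was not tested.

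*Sycp3*, a structural protein of the axis and later of the lateral elements, had a different pattern, with no difference between the ESC lines beyond their spread. Its signals were 4.97 and 5.54 in wt ESCs, 3.69 and 3.24 in wt day 4 EBs and 3.21 and 3.16 in wt day 16 EBs. *Dnmt1-/-* cells gave 5.18 and 4.65, 5.0 and 3.51, and 5.29 and 5.96. TKO cells gave 5.34 and 4.71, 5.78 and 5.29, and 6.24 and 5.75. In ESCs all 3 lines overlapped, whereas in EBs every TKO array was above every wt array. The *Dnmt1-/-* arrays of day 4 had an SD of 1.05, and both lay below every TKO array of that day. Replicate 1 (5.0) was above every wt array of that day and replicate 2 (3.51) within the range of wt.

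In ESCs *Sycp3* differed from wt by -0.34 in *Dnmt1-/-* and -0.23 in TKO (SE 0.43, adjusted p = 1 each). At day 4 it was 4.19-fold higher in TKO than in wt EBs (2.07, SE 0.43, adjusted p = 0.014), a call lost without either wt array or TKO replicate 1 (adjusted p of up to 0.12), and the *Dnmt1-/-* difference was 0.79 (adjusted p = 0.99). At day 16 it was 5.43-fold higher in *Dnmt1-/-* EBs (2.44, adjusted p = 0.0049, and 0.061 without replicate 2 of this group) and 7.01-fold higher in TKO EBs (2.81, adjusted p = 0.00085). *Sycp3* fell in wt, by day 4 (-1.79, adjusted p = 0.02, and up to 0.16 without day 0 replicate 2 or either day 4 array) and over the whole course (-2.07, SE 0.43, adjusted p = 0.0035), against whole-course values of 0.71 in *Dnmt1-/-* and 0.97 in TKO cells. The difference of the whole-course change from wt was 2.79 in *Dnmt1-/-* (SE 0.61, adjusted p = 0.045) and 3.04 in TKO cells (SE 0.61, adjusted p = 0.013). The first was lost without any one of its 8 arrays (adjusted p = 0.065 to 0.19) and the second without replicate 2 of wt or TKO ESCs or replicate 1 of TKO day 16 EBs (adjusted p of up to 0.064). Without replicate 1 of the *Dnmt1-/-* day 4 EBs, *Sycp3* passed the test between the mutants at day 4 (2.02, adjusted p = 0.026, against 1.28 with both arrays) and in its rise from day 4 to day 16 in *Dnmt1-/-* EBs (2.11, adjusted p = 0.015, against 1.37).

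*Sycp1* encodes the transverse filament that spans the synaptonemal complex and was the one member for which *Dnmt1-/-* EBs gave the highest signal. In wt it read 4.04 and 3.98, 2.79 and 2.81, and 3.32 and 3.09 at days 0, 4 and 16. In *Dnmt1-/-* cells it read 4.37 and 4.22, 3.50 and 3.19, and 5.06 and 4.53. In TKO cells it read 4.39 and 3.91, 3.50 and 3.32, and 4.17 and 3.72. The day 16 groups were therefore ordered wt, TKO and *Dnmt1-/-* without overlap. *Sycp1* was 3.01-fold higher than in wt in *Dnmt1-/-* EBs at day 16 (1.59, SE 0.22, adjusted p = 0.00072, and 0.057 in a fit of the compared arrays alone), and the TKO difference of 0.74 (adjusted p = 0.041) stayed under the fold line. The direct difference of TKO from *Dnmt1-/-* EBs, -0.85 (SE 0.22, adjusted p = 0.075), did not pass. It fell to day 4 in wt (-1.21, SE 0.22, adjusted p = 0.0036), with -0.95 in *Dnmt1-/-* (adjusted p = 0.014) and -0.74 in TKO cells (adjusted p = 0.067), and rose from day 4 to day 16 in *Dnmt1-/-* EBs (1.45, SE 0.22, adjusted p = 0.0017, and 0.08 in a fit of the compared arrays alone).

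The central element genes differed from each other. *Syce1*, whose product joins the ends of the transverse filaments, fell with differentiation in all 3 lines and stopped at a higher level in the mutants. Its signals were 6.87 and 6.86, 4.43 and 4.60, and 4.58 and 4.81 in wt. They were 8.11 and 7.28, 6.0 and 5.22, and 6.21 and 6.08 in *Dnmt1-/-* cells. They were 8.19 and 7.76, 6.38 and 6.19, and 6.39 and 6.18 in TKO cells. Mutant and wt arrays did not overlap on any day, and wt ESCs (mean 6.87) were still above TKO EBs of both days (mean 6.29). The falls to day 4 were -2.35 in wt (SE 0.28, adjusted p = 0.00021), -2.09 in *Dnmt1-/-* (adjusted p = 0.0005) and -1.69 in TKO cells (adjusted p = 0.0032), and no change from day 4 to day 16 passed (0.18, 0.53 and 0.00). The difference of the fall from that of wt was 0.26 in *Dnmt1-/-* and 0.66 in TKO cells (SE 0.39 each), and neither passed. Compared with wt, *Syce1* was higher in TKO EBs at day 4 (1.77, SE 0.28, adjusted p = 0.0023) and day 16 (1.59, adjusted p = 0.002) and in *Dnmt1-/-* EBs at day 16 (1.45, adjusted p = 0.008, and 0.053 or 0.07 without replicate 1 of wt or of *Dnmt1-/-*). The day 0 differences of 0.83 and 1.11 in *Dnmt1-/-* and TKO ESCs (adjusted p = 0.53 and 0.12) did not pass. At day 4 the *Dnmt1-/-* difference was 1.09 (adjusted p = 0.16) with both arrays and 1.48 (adjusted p = 0.034) without replicate 2.

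*Syce2*, a further central element protein that assembles into fibres with Tex12, spanned 1.51 over the 9 group means, against 3.46 for *Syce1*. It read 9.62 and 9.53, 9.61 and 8.77, and 8.67 and 8.04 in wt, 9.73 and 9.50, 9.39 and 8.63, and 9.26 and 8.88 in *Dnmt1-/-* cells, and 9.75 and 9.86, 9.95 and 9.78, and 10.04 and 9.69 in TKO cells. The lines were close in ESCs, and TKO arrays stayed between 9.69 and 10.04 on all days while wt reached its lowest mean, 8.35, at day 16. *Syce2* fell in wt from day 0 to day 16 (-1.22, SE 0.31, adjusted p = 0.011, and 0.06 or 0.11 without day 0 replicate 1 or day 16 replicate 2) and was 2.85-fold higher in TKO than in wt EBs at day 16 (1.51, SE 0.31, adjusted p = 0.0054, and 0.063 without replicate 2 of wt). In *Dnmt1-/-* EBs the day 16 difference was 0.72 (adjusted p = 0.25).

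To see how the genes behaved as a group, the calls were counted in each comparison and set beside the share of all probe sets that passed in the same direction. In ESCs 1 of 8 members, *Smc1b*, was higher in *Dnmt1-/-* and the same gene was higher in TKO cells, where 0.338% and 0.214% of all probe sets were higher. The median log2 fold change of the members was 0.56 and 0.57, against -0.03 and -0.02 over all probe sets, and 7 of 8 values were above 0 in each. The comparisons share the wt arrays and are not independent of each other.

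At day 4, 0 of 8 members passed in *Dnmt1-/-* EBs by limma (3 at an unadjusted p under 0.05, and 0.738% of all probe sets passed in either direction), with a median of 0.48. In TKO EBs 3 of 8 were higher, *Smc1b*, *Sycp3* and *Syce1*, with a background of 2.11% and a median of 0.74. At day 16, 5 of 8 were higher in *Dnmt1-/-* EBs, *Smc1b*, *Stag3*, *Sycp3*, *Sycp1* and *Syce1*, where 1.53% of all probe sets were higher. Likewise 5 of 8 were higher in TKO EBs, *Smc1b*, *Stag3*, *Sycp3*, *Syce1* and *Syce2*, with a background of 2.40%. The medians at day 16 were 1.52 and 1.55, against -0.03 and 0.05 over all probe sets, and all 8 members were above 0 in both mutants. No member was lower than in wt with a call on any day.

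**Figure D3:**
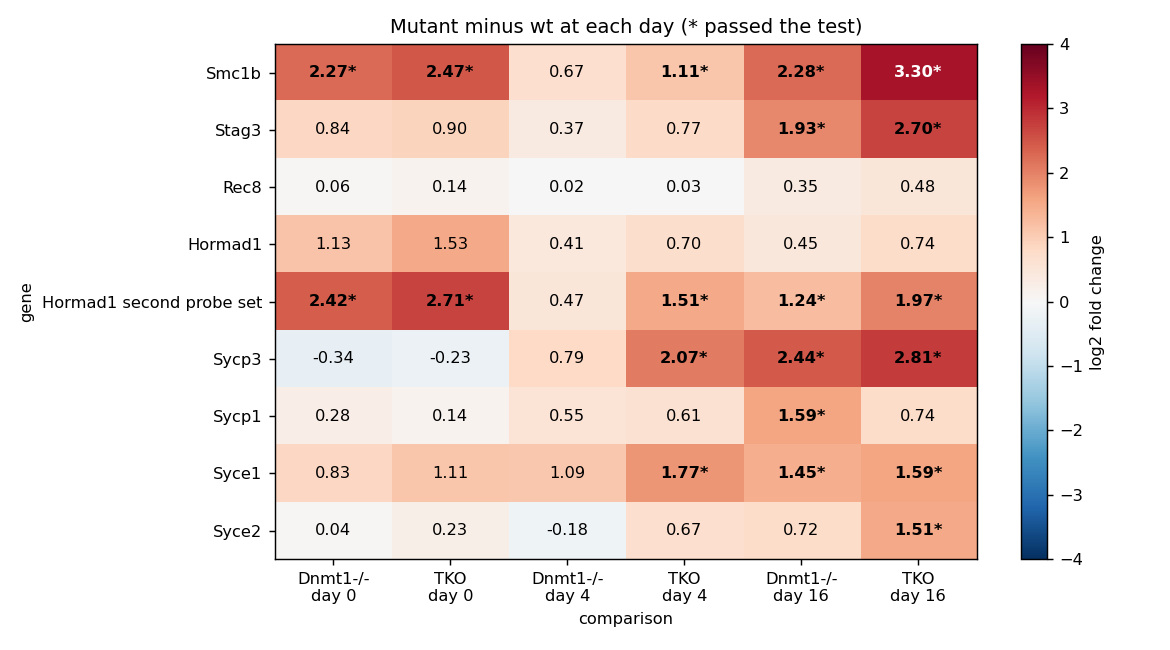
Log2 fold change of each gene (rows) in *Dnmt1-/-* and TKO cells compared with wt of the same day (columns), coloured from blue (lower) to red (higher); bold values with an asterisk passed the test. The day 16 columns hold 5 called members each, beside the second *Hormad1* probe set, and the *Rec8* row has no call.

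In the direct comparison of the mutants 0 of 8 members passed by limma at day 0, day 4 or day 16, with 0, 3 and 4 members at an unadjusted p under 0.05. Of all probe sets 0.00563%, 0.848% and 1.07% passed on these days in either direction. The largest day 16 values were 1.02 for *Smc1b* (SE 0.26, adjusted p = 0.073) and -0.85 for *Sycp1*. These p-values do not show that the mutants were alike.

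Between days, every member that passed in the first period was lower at day 4 than at day 0. In wt 3 of 8 were lower at day 4 than at day 0, *Sycp3*, *Sycp1* and *Syce1* (background 2.08%). In *Dnmt1-/-* cells 4 of 8 were lower, *Smc1b*, *Stag3*, *Hormad1* and *Syce1* (background 2.05%), and the same 4 genes were lower in TKO cells (background 0.898%). From day 4 to day 16 no member passed in wt by limma (3 at an unadjusted p under 0.05, background 5.87% in either direction). In this second period 2 of 8 rose in *Dnmt1-/-* EBs, *Smc1b* and *Sycp1* (background 2.39%), and 2 of 8 in TKO EBs, *Smc1b* and *Stag3* (background 0.794%). Over the whole course from day 0 to day 16, 4 of 8 were lower in wt, *Stag3*, *Sycp3*, *Syce1* and *Syce2* (background 4.62%). *Hormad1* and *Syce1*, 2 of 8, were lower in *Dnmt1-/-* (background 2.10%) and also in TKO cells (background 0.631%). The whole-course fall of *Hormad1* lost its call without replicate 1 of either day in *Dnmt1-/-* cells (adjusted p = 0.084 and 0.068) and without day 0 replicate 1 or either day 16 array in TKO cells (adjusted p of up to 0.16), and that of *Syce1* without day 0 replicate 1 in TKO cells (adjusted p = 0.064).

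**Figure D4:**
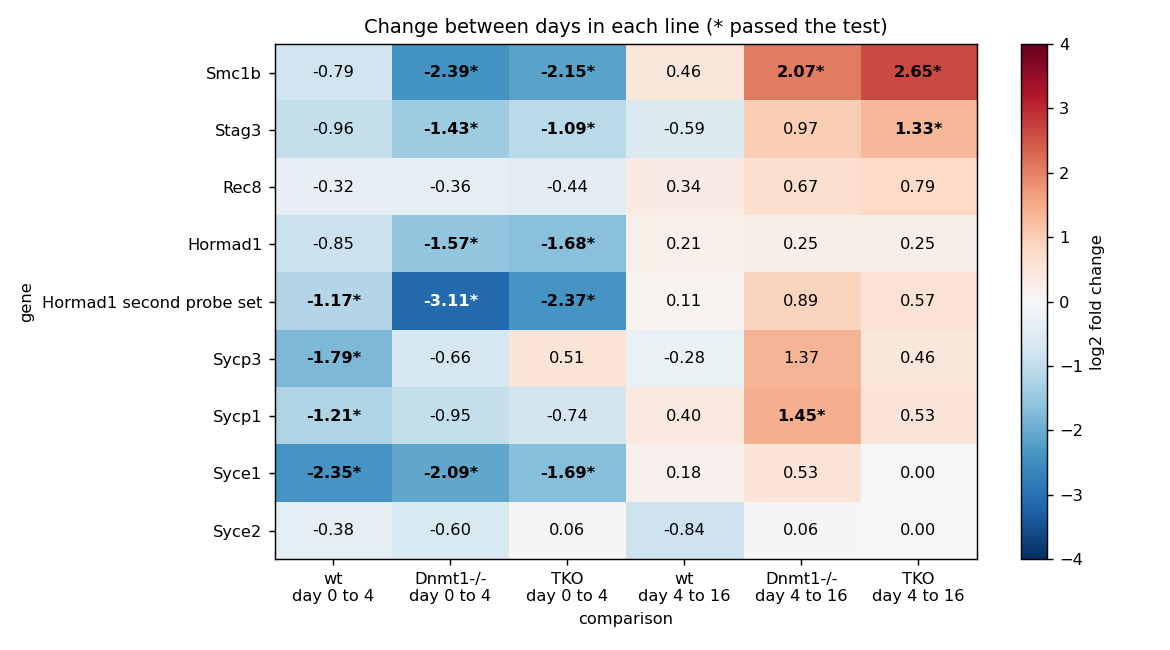
Log2 fold change of each gene (rows) from day 0 to day 4 and from day 4 to day 16 in wt, *Dnmt1-/-* and TKO cells (columns), coloured from blue (fall) to red (rise); bold values with an asterisk passed the test. *Smc1b* falls by 2.39 and 2.15 and then rises by 2.07 and 2.65 in the mutants, whereas *Syce1* falls in all 3 lines without a later rise.

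Whether a change between days itself differed between a mutant and wt was tested as a difference of changes. For the first period 0 of 8 members passed in *Dnmt1-/-* cells (limma; 1 at an unadjusted p under 0.05), where 0% of all probe sets passed, and 0 of 8 in TKO cells (2 at an unadjusted p under 0.05, background 1.38% in either direction). For the second period 0 of 8 passed in *Dnmt1-/-* EBs (4 at an unadjusted p under 0.05, background 0.884% in either direction) and 2 of 8 in TKO EBs, *Smc1b* and *Stag3* (background 0.659%). With the replicate number added to the model as a block, 2 of 8 passed in *Dnmt1-/-* EBs, *Stag3* and *Sycp1*. For the whole course 1 of 8 passed in *Dnmt1-/-* cells, *Sycp3* (background 0.617%), and 2 of 8 in TKO cells, *Stag3* and *Sycp3* (background 1.69%), all with higher values in the mutant.

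Pluripotency and fibroblast markers differed between the lines in day 16 EBs, and endoderm markers did so mainly in TKO EBs. At day 16 the mean signal over 8 pluripotency markers was 7.11 to 7.49 on the wt arrays, 8.85 to 9.04 on the *Dnmt1-/-* arrays and 10.01 to 10.04 on the TKO arrays, and 4 and 7 of the 8 markers were higher than in wt with a call in *Dnmt1-/-* and TKO EBs. The mean over 6 fibroblast markers was 10.40 to 10.67 in wt, 8.32 to 8.89 in *Dnmt1-/-* and 5.65 to 6.28 in TKO EBs, with 5 of 6 lower in each mutant. Of 8 endoderm markers 1 was lower in *Dnmt1-/-* and 4 were lower in TKO EBs. Their mean was 9.88 to 10.01 in wt, 9.71 to 9.80 in *Dnmt1-/-* and 7.84 to 8.13 in TKO EBs. The share of all probe sets lower at day 16 is not reported here. Germ cell markers all recur in the list of germ cell regulators below. Of these 8 markers 2 were higher in *Dnmt1-/-* and 5 in TKO EBs at day 16, where 1.53% and 2.40% of all probe sets were higher. At day 4 the pluripotency mean was 7.28 to 7.44 in wt, 7.50 to 8.82 in *Dnmt1-/-* and 9.63 to 9.94 in TKO EBs. The wide *Dnmt1-/-* range comes from the arrays that also stand apart for *Sycp3*. In ESCs the lines were at 10.49 to 10.53, 10.58 to 10.87 and 10.74 to 10.76, and 0 of 8 pluripotency markers passed by limma in either mutant (1 at an unadjusted p under 0.05 in each). Fibroblast markers, which would also mark feeder cells, were at 5.27 to 5.58 in all ESC groups. The part of these cell types in the differences between the lines was not tested.

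The pathway around the members was examined with further gene lists. Of 16 measured genes for other axis, synaptonemal complex and telomere attachment proteins, 0 passed in ESCs of either mutant by limma (4 and 8 at an unadjusted p under 0.05 in *Dnmt1-/-* and TKO). At day 4 this list had 1 gene higher in *Dnmt1-/-* and 3 in TKO EBs, and at day 16 it had 4 and 7, with medians of 0.56 and 0.86 and no gene lower. Of all probe sets 2.11% were higher in TKO EBs at day 4, and 0.738% passed in *Dnmt1-/-* EBs in either direction. At day 16, 1.53% were higher in *Dnmt1-/-* and 2.40% in TKO EBs. The leading genes at day 16 were *Six6os1*, a central element gene, at 2.39 in *Dnmt1-/-* (adjusted p = 7.9e-05) and 3.28 in TKO EBs (adjusted p = 2.6e-06), and *Hormad2*, a paralogue of *Hormad1*, at 2.61 (adjusted p = 4.2e-05) and 3.14 (adjusted p = 4.3e-06). *Terb2*, which tethers telomeres to the nuclear envelope, was at 1.01 and 1.49, and *Rec114*, a cofactor of break formation, at 1.01 and 1.48. *Rad21l*, the other meiotic kleisin, was at -0.09 and 0.15 and like *Rec8* did not pass.

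Meiotic recombination genes had no call in ESCs (0 of 20 in each mutant by limma, 3 and 5 at an unadjusted p under 0.05), 0 and 4 higher at day 4, and 6 and 8 higher at day 16 in *Dnmt1-/-* and TKO EBs, with day 16 medians of 0.49 and 0.77. Of all probe sets 2.11% were higher in TKO EBs at day 4. At day 16 the shares were 1.53% in *Dnmt1-/-* and 2.40% in TKO EBs. *Hsf2bp*, whose product binds Brca2 in meiosis, reached 2.31 and 3.44 and *Ccnb1ip1*, a crossover factor, 2.22 and 2.75 at day 16. *Dmc1*, the meiotic recombinase, was at 1.16 (adjusted p = 0.041) and 1.90 (adjusted p = 0.001), whereas *Spo11*, which makes the breaks, did not pass in either mutant.

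Of 15 measured regulators of meiotic entry and germ cells, *Dazl*, a germ cell RNA-binding protein, was higher in ESCs of both mutants (2.01 and 2.39, adjusted p = 0.011 and 0.0035), and *Stra8*, which promotes meiotic entry, in TKO ESCs (1.12, adjusted p = 0.048). At day 16 this list had 4 genes higher in *Dnmt1-/-* and 9 in TKO EBs, where 1.53% and 2.40% of all probe sets were higher. *Dazl* led it with 3.52 and 4.46, followed by *Ddx4*, a germ cell helicase, with 3.0 and 2.97. *Mael*, a factor of the piRNA pathway, was at 2.17 and 2.72.

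The mitotic counterparts of the cohesin members served as a comparison. Of 17 genes for mitotic cohesin and its regulators, 0 passed in *Dnmt1-/-* cells on any day by limma (0, 0 and 8 at an unadjusted p under 0.05) and 0 in TKO cells at day 0 or day 4 (1 and 3). In TKO EBs at day 16, 5 were higher, *Esco2* (1.75), *Sgo2a* (1.43), *Cdca5* (1.35), *Sgo1* (1.07) and *Espl1* (1.05), which act on cohesin during cell division. The ring subunits were not among them: *Smc1a* differed by 0.02 (SE 0.13), *Smc3* by 0.44 (SE 0.18), *Rad21* by 0.12 (SE 0.13), *Stag1* by 0.13 (SE 0.21) and *Stag2* by -0.42 (SE 0.23) in TKO EBs at day 16, and none of these passed. In wt, 5 of the 17 genes were lower at day 16 than at day 0. Of all probe sets 2.40% were higher in TKO than in wt EBs at day 16, and 4.62% were lower in wt at day 16 than at day 0.

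Of 20 genes for the Polycomb complex PRC1.6 and related repressors of germ cell genes, 0 passed in ESCs by limma (3 at an unadjusted p under 0.05 in each mutant). *E2f6*, which recognizes the E2F core, differed from wt by -0.47 and -0.43 in *Dnmt1-/-* and TKO ESCs and by 0.02 and -0.42 at day 16, with no call, and *Mga*, a partner of Max at E-boxes, by 0.24 in ESCs of both mutants and 0.45 and 0.75 at day 16. At day 16 *Dnmt3l*, a cofactor of *de novo* methylation, was higher in *Dnmt1-/-* (2.84, adjusted p = 0.00064) and TKO EBs (4.47, adjusted p = 7e-06), and *L3mbtl2* in TKO EBs (1.53, adjusted p = 0.00023).

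**Figure D5:**
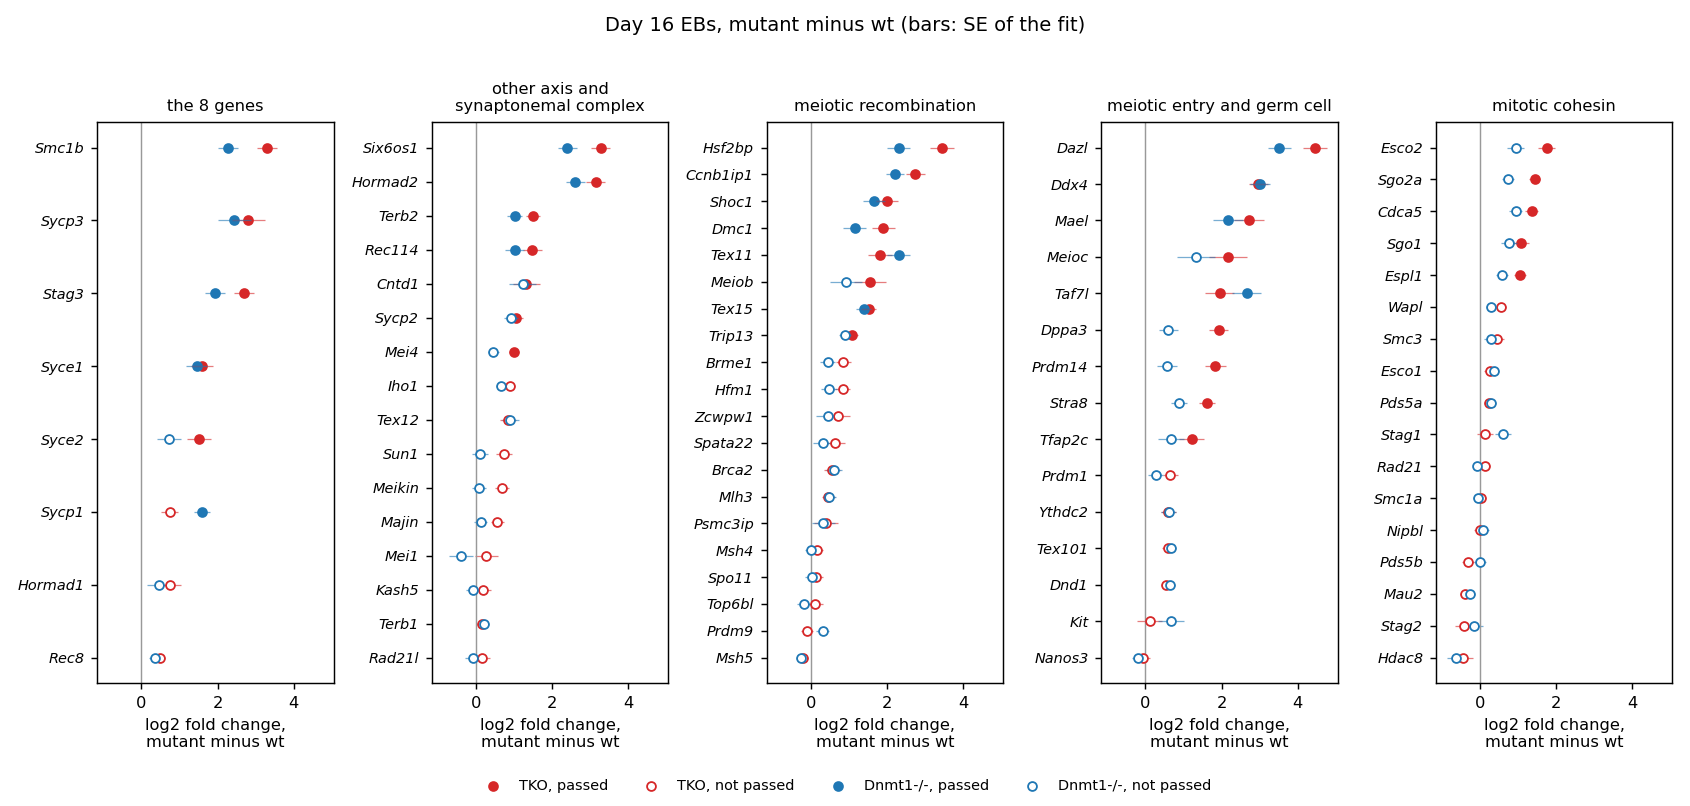
Log2 fold change of mutant minus wt in day 16 EBs (horizontal axis; bars, SE of the fit) for the 8 genes and for the genes of 4 further lists, with *Dnmt1-/-* in blue and TKO in red; filled points passed the test, and open points did not. In TKO EBs 5 of 8, 7 of 16, 8 of 20, 9 of 15 and 5 of 17 genes passed, all on the side of higher signal, where 2.40% of all probe sets were higher. The cohesin ring subunits shared with mitosis lie between -0.42 and 0.44 in TKO EBs without a call.

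Finally, the genes whose course over the 18 arrays was most like that of each member were listed, as a description, since the arrays share genotypes and days. *Syce1* was followed most closely, by *Psma8*, a testis proteasome subunit (Pearson r of 0.984), *Ubxn2a* (0.957) and *Zfp980* (0.956). *Hormad1* was followed by *Dnajc5g* (0.965), *4930591A17Rik* (0.955) and the testis protease gene *Prss50* (0.950). For *Smc1b* the leading genes were *Gm9* (0.938), *Dazl* (0.923) and *Stra8* (0.921), and for *Stag3* *Prss42* (0.910), *Pnma5* (0.909) and *Tesmin* (0.907). *Sycp3* was best matched by *Ddx4* (0.874), *Sycp1* by *Depdc7* (0.938) and *Syce2* by *Gfer* (0.945). Among the members themselves *Hormad1* and *Syce1* (0.92) and *Smc1b* and *Stag3* (0.88) were the closest pairs, and *Rec8* and *Syce2* (0.11) the most distant.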

How the data were processed

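RNA of wt, *Dnmt1-/-* and TKO cells at 3 days was measured on 18 Affymetrix Mouse Gene 1.0 ST arrays. The deposited log2 signals had been made by the authors with RMA (background correction, normalization between arrays, summary of probes), which compresses low signals. The RMA version and probe annotation were not given in the sources used here. Genes were named through GEO's platform annotation: of 35512 probe sets, 21789 had 1 symbol, 1621 several and 12102 none. For a gene with several probe sets the one with the highest mean signal was used. Columns of the authors' own fold changes were not used.

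A linear model with 1 mean per group was fitted to all probe sets and arrays (limma 3.58.1, R 4.3.3, lmFit and eBayes), and 24 comparisons were made with Benjamini-Hochberg adjustment over all probe sets in each. Calls required a 2-fold difference or more, at a false discovery rate below 0.05. Named are all members, up to 4 called genes of each list with the largest change and up to 3 genes with the highest Pearson r to a member. *Rad21l*, *Spo11*, *E2f6*, *Mga*, *Espl1*, *Dmc1* in *Dnmt1-/-* EBs and the mitotic ring subunits are named outside this rule, chosen after their values were seen. The script was tested on simulated data. The members, lists and rules were chosen with earlier results of these data known.

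Of the listed genes, *Sycp2l*, *Syce3*, *Ankrd31*, *Fkbp6*, *Mnd1*, *Rnf212* and *Meiosin* were not matched to a probe set with a single symbol and were not analysed here, and some others are not reported here. The precision is limited by the 2 arrays per group, and the median SE of a difference over all probe sets was 0.203. Alternatives were a replicate block, a trended robust variance, a filter on the lowest signals, subtraction of each array's median and a further quantile normalization. Others were a fit of the compared arrays alone, adjustment over all comparisons together and leaving out each array in turn.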

Additional observations from a re-analysis of the deposited data

Results flagged for a closer look

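For 5 results the change between days itself differed between a mutant and wt by the interaction term of the limma fit. Of these, only that of *Smc1b* in TKO EBs kept its call without each array in turn, as given above. That of *Sycp3* in *Dnmt1-/-* cells lost it without any one of its arrays and after further quantile normalization. *Sycp3* changed from day 0 to day 16 by 2.79 more on the log2 scale in *Dnmt1-/-* than in wt cells (adjusted p = 0.045) and by 3.04 more in TKO than in wt cells (adjusted p = 0.013), with values of -2.07 in wt, 0.71 in *Dnmt1-/-* and 0.97 in TKO cells. *Stag3* changed by 1.79 more in TKO than in wt cells over the same course (adjusted p = 0.017), with -1.55 in wt and 0.24 in TKO cells. From day 4 to day 16, *Smc1b* changed by 2.19 more (adjusted p = 0.0054) and *Stag3* by 1.92 more (adjusted p = 0.015) in TKO than in wt EBs. *Smc1b* gave 0.46 in wt and 2.65 in TKO EBs, and *Stag3* -0.59 and 1.33. The *Dnmt1-/-* values for these last changes, 1.61 and 1.56, did not pass in the main limma fit (adjusted p = 0.072 and 0.11). That of *Stag3* passed with a replicate block (adjusted p = 0.037).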

How the results depend on the processing

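Over 74 results of single genes and 846 recomputed values, none changed direction, 742 kept their side of the threshold, 73 lost a call and 31 gained one. The filter on the lowest signals removed *Sycp1* and the second *Hormad1* probe set. Their calls have no recomputed value there and are not counted as lost. With adjustment over all comparisons together, 2 members were called in *Dnmt1-/-* ESCs, 3 in TKO ESCs, 1 in *Dnmt1-/-* day 4 EBs and 1 between the mutants at day 16, and for differences of changes in *Dnmt1-/-* 1 (lower) from day 0 to day 4 and 2 each from day 4 and from day 0 to day 16. TKO ESCs had 2 called members with the trended robust variance, without the 30% of probe sets of lowest signal and after further quantile normalization, in place of 1. Without the lowest 30%, *Dnmt1-/-* had 1 call from day 4 to day 16. That filter removed the *Sycp1* probe set itself, so the count fell without a new test of this gene. In the same way it left 2 calls in wt from day 0 to day 4 and 4 in *Dnmt1-/-* day 16 EBs against wt. After quantile normalization there was 1 call between the mutants at day 16 and 0 for the whole-course difference in *Dnmt1-/-*. A fit of the compared arrays alone called 2, 0 and 1 members in *Dnmt1-/-* from day 0 to 4, 4 to 16 and 0 to 16, 1 each in TKO from day 4 to 16 and 0 to 16, and 1 each for the TKO differences of change from day 0 to 4 (lower) and 0 to 16. That fit lost *Sycp1* in *Dnmt1-/-* day 16 EBs against wt (adjusted p = 0.057, 4 members left). Between days it lost *Hormad1* and *Syce1* (0.056 each), *Smc1b* (0.07), *Sycp1* (0.08) and *Hormad1* (0.051) in *Dnmt1-/-*, and *Stag3* (0.069), *Hormad1* (0.061) and the whole-course *Stag3* difference (0.093) in TKO cells. The cause of the other shifts was not tested.

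With a replicate block 2 members were called in TKO ESCs, where *Hormad1* joined *Smc1b*, and 2 each for the *Dnmt1-/-* differences of change from day 4 and from day 0 to day 16. The first were *Stag3* (adjusted p = 0.037) and *Sycp1* (0.031), and the second *Sycp1* (0.0093) beside *Sycp3*. In TKO cells the whole-course difference from wt then had 3 members, with *Syce2* added (1.28, adjusted p = 0.021, against 0.13 without the block), and no call of a member was lost. Arrays of the same number had deviations that correlated by 0.04 to 0.50 (median 0.27) over 36 pairs of groups, with 32 above 0.1. The paper describes 2 independent experiments, but no label ties a replicate number to one of them. The model without the block was the planned one and was kept. The other 4 pairs do not show that arrays of a number are unpaired, and arrays of the same number may share an experiment.

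Leaving out 1 array at a time, where a lone array is assumed to vary like those of other groups, gave 0 to 1 calls at day 4 in *Dnmt1-/-* and 1 to 2 in TKO EBs, and 0 to 1 between the mutants at day 4. It gave 0 to 1 in wt from day 4 to 16, 1 to 2 in *Dnmt1-/-* from day 0 to 16, and in TKO 2 to 3 from day 0 to 4, 1 to 2 from day 4 to 16 and 0 to 2 from day 0 to 16. Differences of change gave 0 to 1 and 0 in *Dnmt1-/-*, and 1 to 2 and 0 to 2 in TKO cells, from day 4 and from day 0 to day 16. Of the day 16 comparisons with wt, each kept 4 to 5 called members. Signal over background was not measured in the values used, and RMA understates differences at low signals such as those of *Sycp1*.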
